A study of Mus musculus with 20 samples.

Results

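The 10 genes described here are markers of the stomach's mucous epithelium and of metaplasia in the pancreas: the trefoil factors Tff1, Tff2 and Tff3, the gastrokines Gkn1 and Gkn2, the membrane proteins Cldn18, Vsig1 and Psca, the annexin Anxa10 and the mucin-folding enzyme Agr2. They were taken from a list of gastric metaplasia and classical pancreatic cancer markers, by gene symbol, and not by a threshold on their levels in these tumours. All 10 are among the 20636 genes measured, and all 10 are among the 16648 that passed the minimum level and were tested.

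The tumours were pancreatic ductal adenocarcinomas, profiled by RNA sequencing, of mice with an R26 LSL-tdTomato reporter and Ptf1aCreER, a tamoxifen-inducible Cre recombinase driven in the acinar cells that make digestive enzymes. All mice carried both, received 5 mg tamoxifen by gavage on each of 3 days when 8 to 10 weeks old, and were kept until morbid. KPT mice were also Trp53 fl/fl, KAT mice Cdkn2A-Arf fl/fl, and KPAT mice both. Each group holds 5 tumours. The series' title concerns the effect of losing Cdkn2A-Arf apart from p53, the protein that Trp53 encodes and that Arf stabilises. The 5 KT samples, in which neither suppressor was floxed, are not analysed here. The labels number the tumours without saying whether each came from a separate mouse, so p-values measure the spread between these tumours. Whole tumours were profiled: fewer cancer cells of a type and less RNA per cell cannot be told apart.

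In the normal stomach, surface and pit mucous cells secrete Tff1 and the gastrokines with the mucin Muc5ac, and neck mucous cells secrete Tff2 with the mucin Muc6, whereas Tff3 belongs mainly to the goblet cells of the intestine, which secrete Muc2. Trefoil factors are small, disulfide-bonded peptides of mucus that help an injured epithelium to close. The healthy pancreas makes little of these genes, but acinar cells that turn ductal, early pancreatic lesions and well-differentiated pancreatic cancers of the classical type are known to switch many of them on.

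The libraries held 14696138 to 26248484 reads each. Trp53 was at 22.7 to 26.3 in KPT, 32.9 to 57.2 in KPAT and 99.0 to 148.2 in KAT, with no overlap between any groups. Cdkn2a ran from 215.7 to 335.4 in KPT, from 150.0 to 689.9 in KAT and from 268.2 to 907.4 in KPAT, and reads from outside a floxed part say nothing of its loss. These and all levels below are deposited normalized values, the reads of a library scaled by its own factor, with 19.478 reads to 1 unit in the geometric mean over libraries. Summed over 13 general epithelial genes, the level ran from 9602 to 16655 in KPT, from 6374 to 10339 in KAT and from 6933 to 9724 in KPAT. Summed over 8 fibroblast genes it was 861.8 to 3894 in KPT, against 6138 to 9282 in KAT and 4834 to 13469 in KPAT, so both Arf-floxed groups held more fibroblast RNA than any KPT tumour and mostly less epithelial RNA. The share of reads from 14 ribosomal RNA genes was highest in KPT 3, KAT 2 and KPAT 5. The labels give each group library numbers of its own range, and a batch that followed them cannot be told apart from genotype.

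In the GENCODE annotation of GRCm38 the trefoil genes lie together at chr17:31125306-31165277 and the gastrokines, with Gkn3, at chr6:87345650-87388935. The others lie at chr9:99689461-99717267 (Cldn18, minus strand), chr15:74714839-74717069 (Psca, plus), chrX:140907608-140939472 (Vsig1, plus), chr8:62057042-62123150 (Anxa10, minus) and chr12:35992907-36004087 (Agr2, plus), and all are protein-coding. RefSeq's promoter table for GRCm38.p6 matched 6 of the 10 genes with 7 start sites. The 250 bases upstream of 4 starts are shown because Gkn1 and Gkn2 had nearly the same pattern across tumours, and because Cldn18, which fell furthest, has a pair of starts, 7204 bases apart, that counts per gene do not separate. Capitals mark matches on either strand to AGATAA, a core bound by GATA factors, or to TGTTTGC, a core bound by forkhead factors.
Gkn1, chr6:87350916-87351165, minus strand: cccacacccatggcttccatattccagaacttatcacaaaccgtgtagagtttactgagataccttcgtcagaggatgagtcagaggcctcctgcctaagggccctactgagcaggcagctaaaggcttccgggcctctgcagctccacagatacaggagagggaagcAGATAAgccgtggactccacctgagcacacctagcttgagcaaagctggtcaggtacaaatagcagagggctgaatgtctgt
Gkn2, chr6:87373115-87373364, plus strand: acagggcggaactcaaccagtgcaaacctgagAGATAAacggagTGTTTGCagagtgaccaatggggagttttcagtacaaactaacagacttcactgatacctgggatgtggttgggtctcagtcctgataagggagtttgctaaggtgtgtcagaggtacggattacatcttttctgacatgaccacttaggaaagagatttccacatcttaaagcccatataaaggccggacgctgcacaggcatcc
Cldn18, upstream start, chr9:99717268-99717517, minus strand: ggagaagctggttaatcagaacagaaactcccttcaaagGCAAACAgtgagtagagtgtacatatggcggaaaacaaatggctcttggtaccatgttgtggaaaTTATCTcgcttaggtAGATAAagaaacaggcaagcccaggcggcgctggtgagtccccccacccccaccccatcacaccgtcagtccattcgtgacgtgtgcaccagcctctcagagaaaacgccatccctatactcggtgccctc
Cldn18, downstream start, chr9:99710064-99710313, minus strand: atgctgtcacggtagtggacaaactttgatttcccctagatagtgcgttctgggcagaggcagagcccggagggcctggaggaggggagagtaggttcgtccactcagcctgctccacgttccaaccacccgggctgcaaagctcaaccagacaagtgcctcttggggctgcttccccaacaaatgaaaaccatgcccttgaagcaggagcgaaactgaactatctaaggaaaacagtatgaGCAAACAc

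Gkn1 and Gkn2, which lie within 43286 bases, each held AGATAA, 82 and 218 bases before the start. Gkn2 also held TGTTTGC 206 bases before the start and TATAAA 29 bases before it. The window of the upstream Cldn18 start held AGATAA at 146 and 131 bases and TGTTTGC at 211 bases before the start, and that of the downstream start held TGTTTGC at 8 bases. In all, 6 motifs were searched on both strands, chosen after the sequences were seen, with no overlap among their matches. Over the 32851 promoters of the same length the shares with a match were 9.99% for AGATAA, 4.3% for TGTTTGC, 3.17% for TGTTTAC, another forkhead core, 6.43% for GTTAAT of the HNF1 family, 0.384% for CAAAGTCCA of HNF4 and 12.4% for TATAAA. Beside those named, the matches were TATAAA at 32 bases before the Anxa10 start, and GTTAAT at 240 bases before the upstream Cldn18 start and at 165 bases before the Vsig1 start. A match is a run of letters and says nothing of a factor being bound.

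Tff2 was the most abundant of the 10 genes per length of exon, and the order over all 15 tumours is a description of means. Levels per kilobase of exon averaged 1445 for Tff2, 330.7 for Gkn1, 294.1 for Gkn2, 164.3 for Psca, 103.9 for Agr2, 54.4 for Tff3, 35.1 for Cldn18, 32.6 for Anxa10, 26.5 for Vsig1 and 2.19 for Tff1. Tff2 was above Cldn18, Anxa10, Vsig1 and Tff1 on this scale in every tumour, whereas neighbours in the order such as Gkn1 and Gkn2, or Cldn18, Anxa10 and Vsig1, differed in the mean by less than their spread between tumours.

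Tff2, the trefoil factor of neck mucous cells, rose in KPAT tumours, and with limma it was the only one of the 10 genes that rose in any comparison. Its level was 450.3, 257.8, 228.7, 299.9 and 267.0 in KPT tumours 1 to 5. In the KAT tumours, in the same order, it was 100.1, 933.3, 238.2, 943.2 and 984.2, and in the KPAT tumours 2032, 2822, 653.2, 1208 and 1241. Every KPAT tumour lay above every KPT tumour, and the KAT tumours split: 3 lay within the KPAT range, KAT 3 lay within the KPT range and KAT 1 below it. The group levels were 300.7 ± 87.4 in KPT, 639.8 ± 432.8 in KAT and 1591 ± 845.4 in KPAT (SD, n = 5 each). The fitted difference of KPAT against KPT was 2.27 on the log2 scale (SE 0.57, adjusted p = 0.0164 with limma), which is 4.82-fold. KAT against KPT gave 0.66 (SE 0.57, adjusted p = 0.408) and KPAT against KAT 1.62 (SE 0.57, adjusted p = 0.33, limma), neither past the threshold of 0.05. With the epithelial level of each tumour as a covariate the KPAT difference was 2.59 with an adjusted p of 0.113, and without the 3 libraries richest in ribosomal RNA it was 2.23 with an adjusted p of 0.0536 (limma). Over all alternatives the adjusted p ran from 7.24e-05 to 0.113.

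Set against the epithelial genes alone, Tff2 was again higher in KPAT than in KPT. As a percentage of the summed epithelial level it was 2.19 to 2.7 in KPT, 7.57 to 40.7 in KPAT and 1.17 to 14.4 in KAT. The narrow KPT range lay wholly below the KPAT range. The KAT tumours ran from below the KPT range, at 1.17 in KAT 1, into the KPAT range, at 14.4 in KAT 5. Its companion mucin Muc6 was at 87.2 to 565.5 in KPT, against 123.8 to 815.2 in KAT and 141.2 to 2493 in KPAT, and did not pass the test in any comparison (1.72, SE 0.80, adjusted p = 0.149 for KPAT against KPT, limma).

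Tff1, the trefoil factor of pit cells, was the least abundant of the 10 genes and did not differ past the threshold in any comparison. It was at 2.76, 0.703, 1.89, 1.10 and 2.27 in KPT tumours 1 to 5, at 0.0937, 0.439, 0.209, 1.09 and 2.20 in KAT, and at 4.85, 1.85, 0.272, 1.07 and 2.31 in KPAT. These levels rest on 2 to 96 reads, and the groups overlap. The log2 difference was -0.09 (SE 0.78, adjusted p = 0.95) for KPAT against KPT and -1.57 (SE 0.78, adjusted p = 0.14) for KAT against KPT with limma, and the former changed sign with the scale of the values, the tool or the tumour left out.

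Tff3, the trefoil factor of goblet cells, was highest in single tumours. Every KPT tumour also lay above all KAT tumours except KAT 1 and all KPAT tumours except KPAT 1. In KPT tumours 1 to 5 its level was 91.0, 8.19, 15.5, 6.12 and 80.6. In KAT it was 169.7, 1.70, 0.679, 3.09 and 2.58, and in KPAT 11.5, 3.00, 1.47, 3.22 and 4.08. KPT 1, KPT 5 and KAT 1 stood far above the other 12 tumours. These 3 also held the most Muc2, the goblet cell mucin, at 47.8 in KPT 1, 38.8 in KPT 5 and 554.3 in KAT 1, against 0.384 to 4.28 elsewhere. The summed level of 13 intestinal genes was 278.3 to 2069 in KPT, with KPT 1 at the top, against 129.8 to 1650 in KAT, with KAT 1 at the top, and 123.6 to 277.2 in KPAT. Of these 13 genes none rose in either comparison with KPT, 3 fell in KPAT (Cdx2, Muc3 and Cdhr5) and 2 in KAT (Cdx2 and Muc3, limma). Of all tested genes, 7.4% fell in KPAT and 13.3% in KAT against KPT. Not every intestinal gene followed Tff3: the intestinal factor Cdx1 was at 70.3 in KAT 1 and 4.92 in KPT 1, but at 0.223 in KPT 5, below the 0.959 of KPT 2, and Cdx2 was at 16.8 in KPT 5, below the 22.8 of KPT 3. The part of intestinal cells in the Tff3 level was not tested. Tff3 was lower in KPAT than in KPT by a fitted -2.59 (SE 1.21, adjusted p = 0.152) and in KAT by -2.33 (SE 1.21, adjusted p = 0.158), neither past the threshold with limma. Without KAT 1 these became -2.59 with an adjusted p of 0.0347 and -3.64 with an adjusted p of 0.00635 (limma). With the epithelial level as a covariate they were -0.04 (adjusted p = 0.99) and -0.15 (adjusted p = 0.95, limma).

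**Figure D1:**
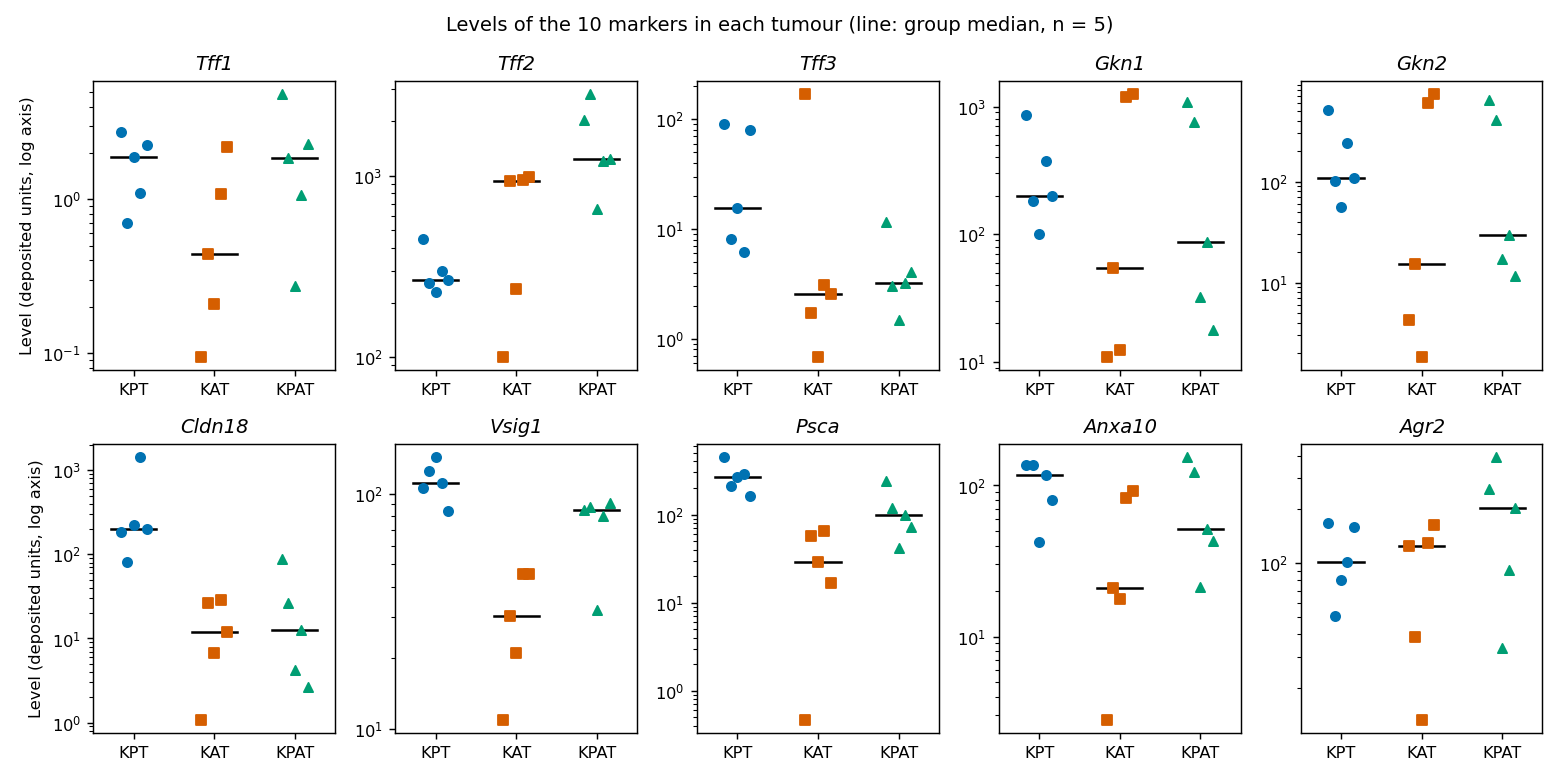
Level of each of the 10 genes in each tumour, in deposited normalized units on a log axis, by group (KPT circles, KAT squares, KPAT triangles); each symbol is 1 tumour and the line is the group median of 5. Tff2 lies higher in all KPAT than in all KPT tumours, Cldn18, Psca and Vsig1 lie lower in all KAT than in all KPT tumours, and Gkn1 and Gkn2 spread widely within KAT and KPAT.

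Cldn18 encodes a claudin of tight junctions, made in the stomach and, from another first exon, in the lung. It fell in both groups with floxed Cdkn2A-Arf. Its level was 186.2, 80.9, 224.2, 1445 and 198.3 in KPT tumours 1 to 5, 1.08, 26.5, 6.63, 29.0 and 12 in KAT, and 88.0, 26.4, 4.20, 12.7 and 2.62 in KPAT. All KAT tumours lay below all KPT tumours, and 1 KPAT tumour, KPAT 1, lay just above the lowest KPT tumour, KPT 2. The group levels were 426.8 ± 571.5, 15 ± 12.3 and 26.8 ± 35.5 (SD, n = 5 each). The log2 difference was -4.74 (SE 1.04, adjusted p = 0.00429) for KAT against KPT, 26.7-fold lower, and -4.29 (SE 1.04, adjusted p = 0.0137) for KPAT against KPT, 19.6-fold lower, with limma. KAT and KPAT did not differ past the threshold (0.45, SE 1.04, adjusted p = 0.908, limma).

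The Cldn18 calls held when any 1 tumour was left out, but the size of the difference leaned on single tumours. Without KPT 4, the tumour at 1445, it was -4.11 in KAT and -3.66 in KPAT, and without KAT 1 the KAT difference was -3.98. Without KPAT 1 the KPAT difference was -4.99. The KPAT call ended with the epithelial level as a covariate (-3.75, adjusted p = 0.184) and without the 3 libraries richest in ribosomal RNA (-3.77, adjusted p = 0.0545, limma), while the KAT call held in every alternative run, with adjusted p from 2.38e-05 to 0.0494. Of 6 lung genes 4 are in the table, and their summed level was 23.9 to 92.6 in KPT, against 38.7 to 114.8 in KAT and 29.4 to 143.6 in KPAT. Most of it came from the surfactant protein gene Sftpd, at 16.3 to 141.0, with Ager at 2.37 to 13.9, while the surfactant genes Sftpc and Sftpb were at or below 0.616 in every tumour. The part of the lung genes in the Cldn18 levels was not tested.

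Psca, prostate stem cell antigen, is a lipid-anchored surface protein of the stomach and bladder that many pancreatic cancers carry, and it fell in KAT. Its level was 450.9, 210.3, 264.8, 290.1 and 162.6 in KPT tumours 1 to 5, 0.469, 57.4, 29.2, 64.7 and 16.9 in KAT, and 241.4, 119.1, 42.1, 97.6 and 71.9 in KPAT. Every KAT tumour lay below every KPT tumour, 3 of the 5 KPAT tumours lay between, and KAT 1, with 10 reads, nearly lacked the transcript. The KAT difference was -4.05 on the log2 scale (SE 0.99, adjusted p = 0.00836, limma), 16.6-fold, and -2.82 (adjusted p = 0.00135) without KAT 1. It was -3.01 (adjusted p = 0.0114) with edgeR and -3.05 (adjusted p = 7.22e-04) with DESeq2. With the epithelial level as a covariate its adjusted p was 0.0539 at the same size (limma). KPAT against KPT gave -1.42 (SE 0.99, adjusted p = 0.342) and KPAT against KAT 2.62 (SE 0.99, adjusted p = 0.354), neither called by limma.

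Vsig1, an adhesion protein of the immunoglobulin family at junctions of the stomach epithelium, fell in KAT, with the smallest standard error of the 10 genes. It was at 105.9, 125.1, 143.5, 111.1 and 84.1 in KPT tumours 1 to 5, at 10.9, 30.1, 21.0, 45.5 and 45.3 in KAT, and at 85.2, 87.7, 31.9, 80.4 and 91.4 in KPAT. All KAT tumours lay below all KPT tumours, and all KPAT tumours except KPAT 3 lay above all KAT tumours. KAT against KPT gave -2.05 (SE 0.37, adjusted p = 0.00137, limma), 4.14-fold lower, with adjusted p from 1.66e-06 to 0.0083 over the alternatives. KPAT against KPT gave -0.67 (SE 0.37, adjusted p = 0.224). The direct difference of KPAT against KAT was 1.39 (SE 0.37, unadjusted p = 0.0018, adjusted p = 0.208, limma), and DESeq2 called it at an adjusted p of 0.0223. Vsig1 is on the X chromosome, and Y-linked transcripts were present in 3 of 5 KPT, 3 of 5 KAT and 2 of 5 KPAT tumours.

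Relative to the epithelial genes, Psca and Cldn18 kept the same separation of KAT from KPT. Psca was 1.47% to 2.76% of the epithelial sum in KPT and 0.00546% to 0.88% in KAT, and Cldn18 was 0.686% to 12% in KPT and 0.0126% to 0.395% in KAT. The Vsig1 share, 0.636% to 1.49% in KPT and 0.127% to 0.663% in KAT, overlapped between the highest KAT and the lowest KPT tumour. Fibroblast RNA was higher in all KAT and KPAT tumours than in KPT, and its part in these differences was not tested.

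Counted together, 1 of the 10 genes rose and 1 fell in KPAT against KPT, where 9.13% of all tested genes rose and 7.4% fell. In KAT against KPT none rose and 3 fell, where 15.6% of all tested genes rose and 13.3% fell. In KPAT against KAT none passed the threshold with limma, 3 had an unadjusted p below 0.05 (Vsig1, Tff2 and Psca), as did 1798 of all 16648 tested genes (10.8%), edgeR called 0 and DESeq2 called 1. There 0.036% of all tested genes rose and 0.012% fell. The median log2 difference of the 10 genes was -0.81 in KPAT against KPT, where all tested genes had 0.02. It was -2.01 in KAT against KPT, where all tested genes had 0.03. It was 1.24 in KPAT against KAT, with 9 of the 10 values positive and a median of 0.00 over all tested genes. The 3 comparisons share their groups, and most of the 10 genes vary together, so these counts describe this set and are not separate lines of evidence.

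**Figure D2:**
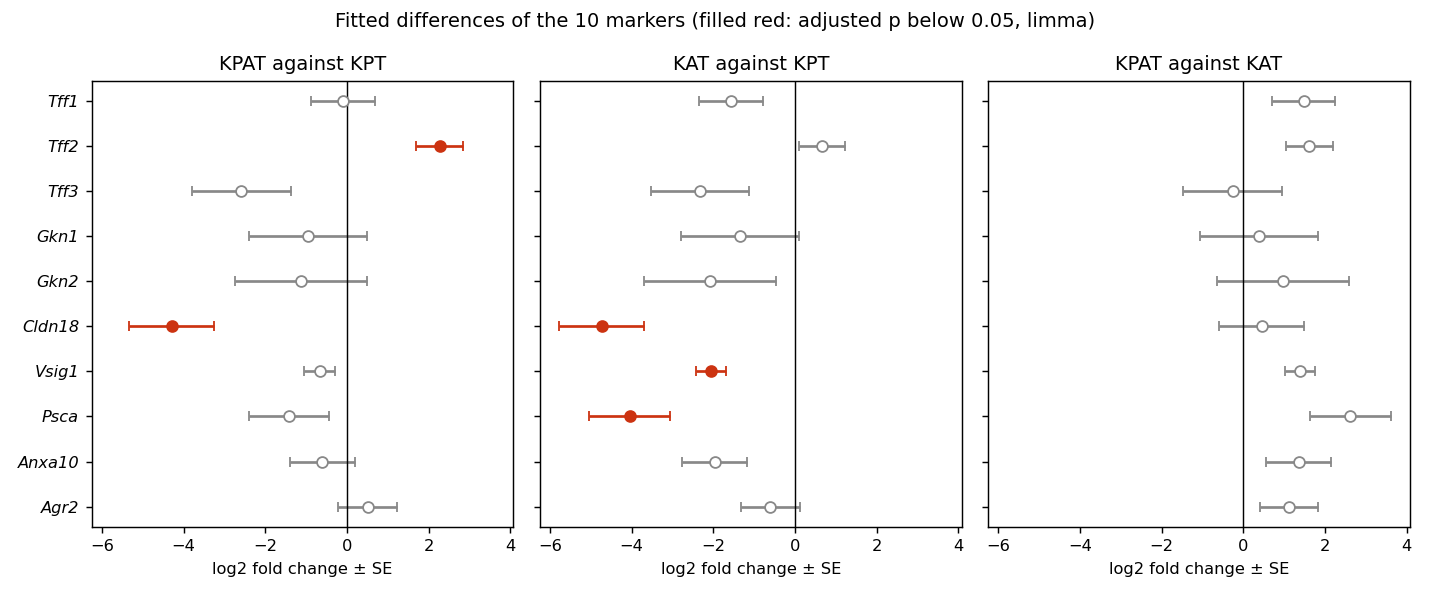
Fitted log2 difference and its standard error for each of the 10 genes in KPAT against KPT, KAT against KPT and KPAT against KAT; filled red symbols passed an adjusted p of 0.05 with limma. Tff2 lies to the right and Cldn18 to the left in KPAT against KPT, and Cldn18, Vsig1 and Psca lie to the left in KAT against KPT.

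The gastrokines Gkn1 and Gkn2, secreted proteins of the gastric surface of which Gkn2 can pair with Tff1, varied more within groups than between them. Gkn1 was at 858.4, 181.1, 100.4, 373.8 and 198.5 in KPT tumours 1 to 5, at 10.9, 54.4, 12.3, 1181 and 1250 in KAT, and at 1087, 754.7, 32.1, 87.4 and 17.9 in KPAT. Gkn2 was at 510.9, 100.2, 56.0, 242.7 and 108.1 in KPT, at 4.26, 15.1, 1.83, 597.5 and 733.2 in KAT, and at 637.4, 410.8, 17.1, 29.6 and 11.7 in KPAT. Both genes were highest in KAT 4, KAT 5 and KPAT 1 and lowest in KAT 1 and KAT 3, so that KAT held both extremes. The KPT tumours lay within a narrower range, 8.55-fold for Gkn1 against 115-fold in KAT and 60.6-fold in KPAT.

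Neither gastrokine passed the test in any comparison. Gkn1 gave -0.96 (SE 1.45, adjusted p = 0.688) in KPAT and -1.35 (SE 1.45, adjusted p = 0.51) in KAT against KPT, and Gkn2 gave -1.12 (SE 1.62, adjusted p = 0.674) and -2.09 (SE 1.62, adjusted p = 0.35) with limma. These log2 differences turned positive with edgeR and DESeq2. The third gastrokine of the mouse cluster, Gkn3, was at 175.9 to 750.1 in KPT, against 106.6 to 1268 in KAT and 44.2 to 937.2 in KPAT, and was not called either.

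Anxa10, a calcium-binding annexin of the gastric surface, and Agr2, an endoplasmic reticulum enzyme that forms the disulfide bonds of mucins, did not pass the test in any comparison. Anxa10 was at 136.3, 136.7, 42.4, 116.5 and 79.6 in KPT tumours 1 to 5, at 2.81, 20.9, 17.6, 82.1 and 92.2 in KAT, and at 154.7, 123.3, 21.4, 51.8 and 42.8 in KPAT. Its KAT difference of -1.97 (SE 0.80, adjusted p = 0.0764, limma) passed at an adjusted p of 0.0453 without KAT 4 and of 0.0382 without KAT 5, the KAT tumours with the most Anxa10. Agr2 was at 168.4, 50.6, 80.8, 100.9 and 159.0 in KPT, at 124.4, 38.4, 13.3, 129.7 and 163.7 in KAT, and at 260.4, 393.3, 33.5, 92.1 and 203.6 in KPAT. Every group overlapped the others for both genes, and the tumour lowest in Agr2 was KAT 3.

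The balance between Tff2 and the 3 membrane genes separated KPT from both other groups in all tumours. These ratios were chosen after the levels were seen and are given without a test, as quotients of deposited levels with no correction for length. Tff2 over Psca was 0.864 to 1.64 in KPT, against 8.15 to 213.5 in KAT and 8.42 to 23.7 in KPAT. The highest KAT value is from KAT 1 with its 10 Psca reads, and without it the highest was 58.4. Tff2 over Cldn18 was 0.208 to 3.19 in KPT, against 32.5 to 92.8 in KAT and 23.1 to 474.3 in KPAT, where the highest without KPAT 5 was 155.7. Tff2 over Vsig1 was 1.59 to 4.25 in KPT, against 9.16 to 31.0 in KAT and 13.6 to 32.2 in KPAT. No ratio of a KPT tumour reached the lowest of the other groups, while KAT and KPAT overlapped in all 3 ratios. The genes of a ratio come from the same cDNA library, so its value does not move with the scaling of that library.

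**Figure D3:**
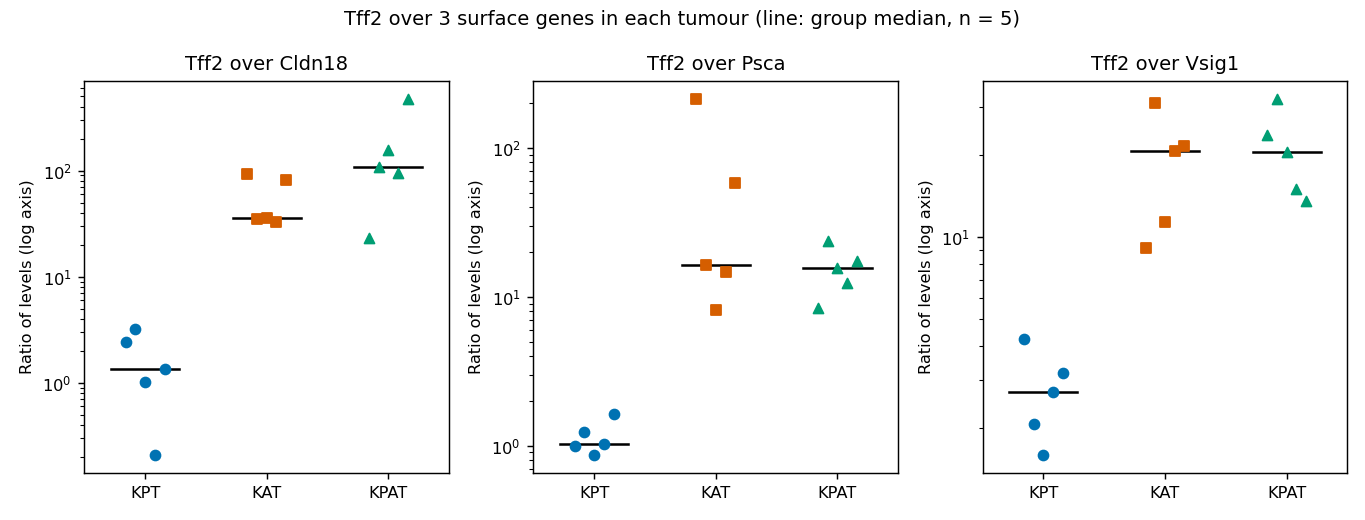
Ratio of the Tff2 level to the level of Cldn18, Psca or Vsig1 in each tumour, on a log axis, by group, with the group median of 5 as a line. The KPT ratios lie between 0.208 and 4.25 and the ratios of KAT and KPAT tumours between 8.15 and 474.3.

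Across the 15 tumours 9 of the 10 genes mostly varied together. Tff3 is left out, a choice made after seeing the data, because a pooled r would rest on KPT 1, KPT 5 and KAT 1. With it, 41 of 45 pairs had a positive r, with a median of 0.52 and a lowest of -0.49. Single tumours weigh on the other pairs too. Without KAT 1 and KAT 3, r went from 0.52 to 0.12 for Vsig1 with Gkn1 and from 0.70 to 0.86 for Tff1 with Agr2. The counts that follow were not redone without KAT 1. Of the 36 pairs of log2 levels without Tff3, over all 15 tumours, 35 had a positive Pearson r, the median r was 0.60 and the range -0.08 to 0.99. In 8 pairs, all positive, both r and Spearman's rho passed a two-sided permutation test of 100000 resamples after adjustment over all 45 pairs computed. The tumours were permuted without regard to genotype, so differences between groups enter these p-values. The closest pair was Gkn1 and Gkn2, with r = 0.99 and rho = 0.99 (permutation p = 1e-05, the smallest these resamples can give, adjusted p = 0.00045). Their r was 0.99 without KAT 1 and KAT 3, the tumours farthest from the median, and 0.99 for the deviations from the group means. Gkn1 was 1.53 to 6.74 times Gkn2 in the deposited levels.

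Vsig1 and Psca had r = 0.88 and rho = 0.88 (permutation p = 2e-05 and 6e-05, adjusted p = 0.00045 and 0.00135), with 0.79 without KAT 1 and KAT 3 and 0.72 for deviations from group means. Cldn18 and Psca had r = 0.78 and rho = 0.85 (permutation p = 0.00029 and 0.00015, adjusted p = 0.00217 and 0.00225), with 0.79 without KPT 4 and KAT 1 and 0.73 for the deviations. Cldn18 and Vsig1 had r = 0.72 and rho = 0.68 (permutation p = 0.00245 and 0.00698, adjusted p = 0.01 and 0.0449), with 0.60 without KPT 4 and KAT 1 and 0.55 for the deviations. KAT 1 was the lowest tumour for all 3 membrane genes. Without it, a choice made after seeing the data, the r of the deviations was 0.41 for Vsig1 with Psca, 0.68 for Cldn18 with Psca and 0.31 for Cldn18 with Vsig1.

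For Tff2 the r over all tumours and the r of deviations from the group means were not alike, a contrast that is described and not tested. Over 15 tumours its r was -0.08 with Cldn18 (rho = -0.15, permutation p = 0.765 and 0.592, adjusted 0.782 and 0.65), 0.27 with Vsig1 (rho = 0.04, permutation p = 0.339 and 0.883, adjusted 0.436 and 0.903) and 0.32 with Psca (rho = 0.03, permutation p = 0.257 and 0.924, adjusted 0.34 and 0.924). Without KAT 1 and KPAT 2 these were -0.46, -0.18 and -0.28. For deviations from the group means they were 0.71, 0.83 and 0.80. KAT 1 was the lowest tumour in Tff2 as well as in the 3 membrane genes, and without it the r of the deviations was 0.55, 0.68 and 0.55. These values pool the 3 groups and need not hold in each: KPT 3 had the least Tff2 and the most Vsig1 of the KPT tumours.

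**Figure D4:**
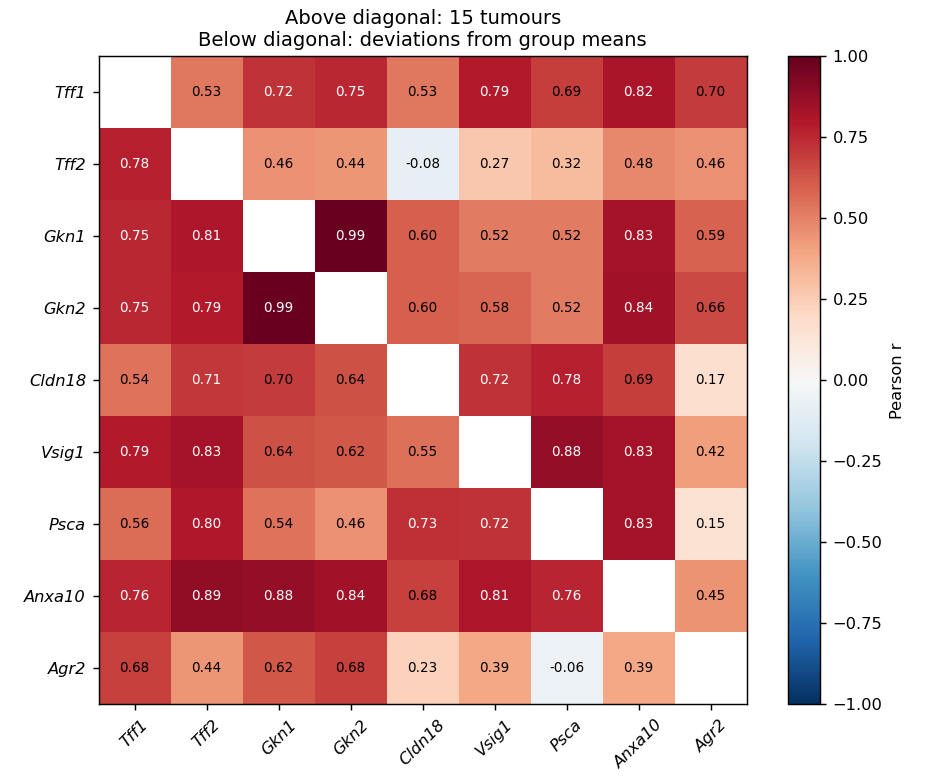
Pearson r of log2 levels for each pair of 9 of the 10 genes, without Tff3, over 15 tumours above the diagonal and for deviations from the 3 group means below it; red is positive and blue negative. Gkn1 and Gkn2 reach 0.99 on both sides, and Tff2 with Psca goes from 0.32 above to 0.80 below.

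**Figure D5:**
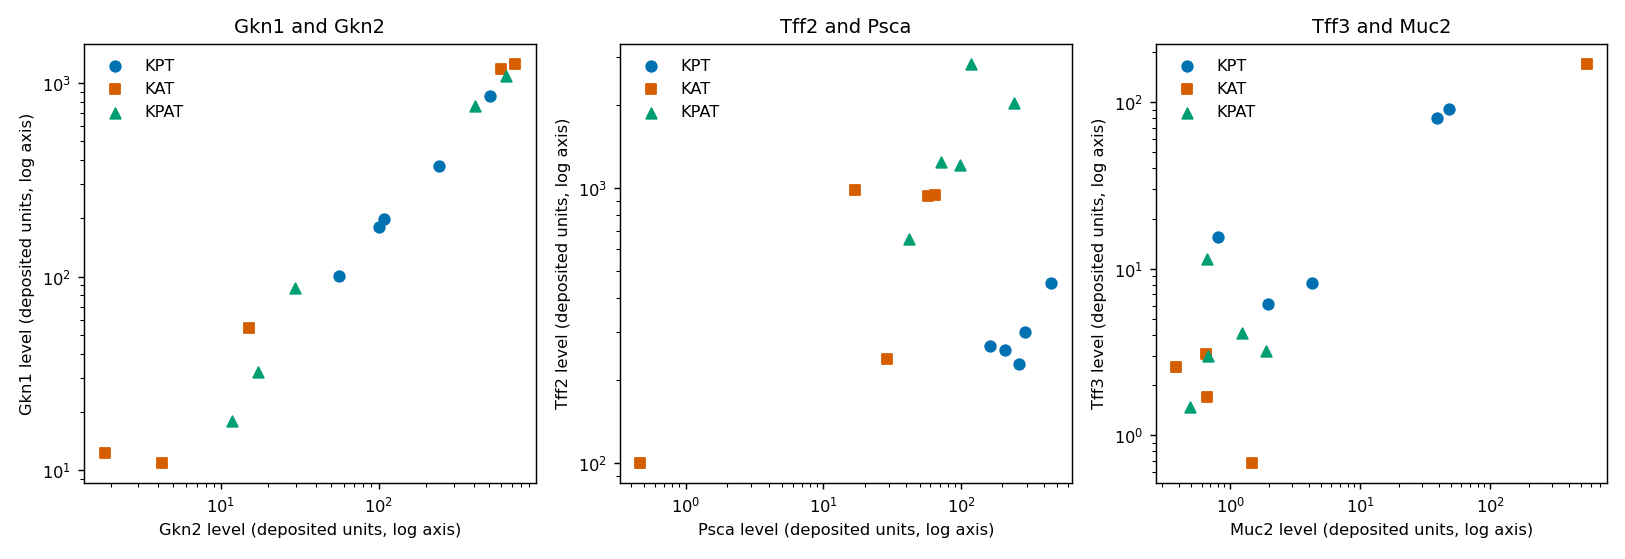
Levels of Gkn1 against Gkn2, Tff2 against Psca and Tff3 against Muc2 in each of the 15 tumours, on log axes in deposited units. Gkn1 and Gkn2 follow 1 line over all groups, the KPT tumours lie apart from KAT and KPAT for Tff2 and Psca, and KAT 1, KPT 1 and KPT 5 hold the most Tff3 and Muc2.

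The rank of a tumour differed from gene to gene, with some tumours low or high for most genes. KAT 1 had the lowest level of 7 of the 10 genes, namely Tff1, Tff2, Cldn18, Vsig1, Psca, Gkn1 and Anxa10, and the highest Tff3. KAT 3 was lowest for the other 3, Tff3, Gkn2 and Agr2. KPAT 1 was among the highest 5 tumours for every gene except Vsig1, where it was the seventh. Other tumours changed places: KAT 5 ranked 1 of 15 for Gkn1 and Gkn2 and 14 for Psca, KPAT 5 ranked 3 for Tff2 and 14 for Cldn18, and KPT 3 ranked 1 for Vsig1 and 14 for Tff2. The log2 epithelial level of KAT 1 was 12.58, the highest in its group and below the lowest KPT tumour at 12.63.

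Genes outside the 10 with the most similar pattern are named by Pearson r over the 15 tumours, as a description with no p. They are the highest among the 16648 tested genes, leaving out the members and predicted genes. So wide a search over 15 tumours gives high values among unrelated genes too, and the r to be had by chance was not computed. For Tff2 these were Gcnt3, a mucin glycosyltransferase, with 0.903, then Dkk2 with 0.838 and St8sia2 with 0.825. For Psca they were Syt16 with 0.971, Avpi1 with 0.892 and Adam28 with 0.864, and for Vsig1 Calr3 with 0.905, Tmco1 with 0.892 and Syt16 with 0.892. Cldn18 was closest to Grhl1, an epithelial transcription factor, with 0.902, then Ankrd1 with 0.875 and Hpcal4 with 0.869. Both gastrokines were closest to Slc9a4, a sodium-proton exchanger of the stomach, with 0.93 for Gkn1 and 0.907 for Gkn2. Gkn1 was next closest to Gkn3 with 0.902 and to Shh, a secreted morphogen made by gastric epithelium, with 0.888, and Gkn2 to Erp44 with 0.883 and Sptssb with 0.881.

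The others lay near different genes. Anxa10 was closest to Dnajc25 with 0.924, Mucl3 with 0.921 and Gata4, an endodermal transcription factor, with 0.909. Agr2 was closest to the mitotic genes Nuf2 with 0.91, Kif14 with 0.895 and Depdc1a with 0.894. Tff1 was closest to Rundc1 with 0.902, Galntl6 with 0.879 and Tex2 with 0.872.

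The nearest tested gene on each side of the clusters and of Agr2 gave a mixed picture, and untested genes may lie between. The trefoil genes Tff3, Tff2 and Tff1 lie in that order within 39972 bases on the minus strand, and Tff2 alone of the 3 passed the test in KPAT against KPT. Abcg1, on the side of lower coordinates, gave 0.87 (SE 0.28, adjusted p = 0.049) in KPAT against KPT, a call that many alternatives ended, and Tmprss3, on the other side, gave 1.69 (SE 0.65, adjusted p = 0.0846, limma) from levels of at most 2.58. Beside the gastrokine cluster, Antxr1 rose by 0.93 (SE 0.24, adjusted p = 0.0105) and Arhgap25 by 1.23 (SE 0.27, adjusted p = 0.00435) in KAT against KPT with limma. Ahr and Tspan13, the nearest tested genes on either side of Agr2, were not called in any comparison.

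Among other genes of gastric surface and pit cells no member passed the test upwards. For this list and those below, 9.13% of all tested genes rose and 7.4% fell in KPAT against KPT. In KAT against KPT 15.6% rose and 13.3% fell. The counts of these short lists were not tested against those shares. Of 12 tested, 0 rose and 1 fell in KPAT against KPT (median -0.48), 0 rose and 3 fell in KAT against KPT (median -0.76), and none was called in KPAT against KAT with limma, where 1 had an unadjusted p below 0.05. In KAT the tetraspanin Tspan8 fell by 1.04 (SE 0.20, adjusted p = 0.00192), the fucosyltransferase Fut2 by 1.64 (SE 0.46, adjusted p = 0.0168) and the membrane mucin Muc1 by 1.54 (SE 0.44, adjusted p = 0.0173, limma). The Muc1 call was lost in 4 and the Fut2 call in 2 of 32 alternatives. In KPAT Fut2 fell by 1.47 (SE 0.46, adjusted p = 0.0416), a call lost in 14 of 32 alternatives. The pit mucin Muc5ac was at 5.67 to 314.0 in KPT, against 2.35 to 89.1 in KAT and 7.03 to 908.6 in KPAT, and Ctse, a gastric protease, at 620.5 to 1876, 308.8 to 1323 and 931.8 to 2018. Neither passed the test in any comparison.

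Of 7 tested genes of neck cells and metaplasia, 1 rose and 0 fell in each comparison with KPT, with medians of 0.35 in KPAT and 0.05 in KAT. That gene was Glipr1, up 0.81 (SE 0.24, adjusted p = 0.0312) and 0.96 (SE 0.24, adjusted p = 0.00871, limma). The call in KPAT was lost in 9 of 32 alternatives. Of 15 classical pancreatic cancer genes, 0 were called in KPAT against KPT by limma, where 4 had an unadjusted p below 0.05, and 0 rose and 3 fell in KAT, namely Krt20, a keratin, by 1.71 (SE 0.31, adjusted p = 0.00147), Tspan8, and Lgals4, a galectin, by 2.12 (SE 0.75, adjusted p = 0.0447, lost in 15 of 32 alternatives).

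Of 13 basal-like genes, 1 rose and 2 fell in KPAT, and 2 rose and 2 fell in KAT. Fam83a rose by 3.03 (SE 0.60, adjusted p = 0.00621) in KPAT and by 2.27 (SE 0.60, adjusted p = 0.0126) in KAT from a KPT mean of 0.736, and Tns4 by 1.60 (SE 0.51, adjusted p = 0.0296) in KAT. The keratin Krt15 fell by 1.39 (SE 0.45, adjusted p = 0.0457) and 1.70 (SE 0.45, adjusted p = 0.0121), and Fgfbp1 by 2.23 (SE 0.73, adjusted p = 0.0497) in KPAT (limma). The KPAT calls of Fgfbp1 and Krt15 were lost in 23 of 32 and 19 of 31 alternatives, and the KAT call of Tns4 in 9 of 32.

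Among 17 transcription factors of endoderm, 0 rose and 2 fell in each comparison with KPT, and both were the same genes. Of all tested genes, 7.4% fell in KPAT and 13.3% in KAT against KPT. Foxa1, a forkhead factor, averaged 80.8 ± 66.7 in KPT, 6.75 ± 8.92 in KAT and 7.75 ± 7.09 in KPAT (SD, n = 5 each). It fell by 3.89 (SE 0.71, adjusted p = 0.00157) in KAT and by 3.39 (SE 0.71, adjusted p = 0.00801) in KPAT, with no overlap of either group with KPT (limma). With the epithelial level as a covariate it fell by 2.62 in KAT (adjusted p = 0.0379), and the KPAT value was -1.90 with an adjusted p of 0.23. Elf3, an epithelial ETS factor, fell by 1.84 (SE 0.48, adjusted p = 0.0115) in KAT and 1.69 (SE 0.48, adjusted p = 0.0278) in KPAT (limma). The KPAT call was lost in 6 of 32 alternatives and the KAT call in 1 of 32. With the epithelial covariate Elf3 was at -0.56 (adjusted p = 0.587) in KPAT and -0.88 (adjusted p = 0.235, limma) in KAT. Gata6 was at 25.5 to 71.8 in KPT, against 31.3 to 65.7 in KAT and 40.0 to 74.0 in KPAT, and Hnf4a at 208.9 to 284.7, 110.2 to 283.0 and 164.7 to 500.4, and neither was called in any comparison.

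Of 13 genes of mucin secretion and folding, none was called in KPAT against KPT by limma, where 2 had an unadjusted p below 0.05, and 2 fell in KAT. These were Galnt3, a mucin glycosyltransferase, by 0.70 (SE 0.11, adjusted p = 6.49e-04), and Bcas1 by 1.48 (SE 0.47, adjusted p = 0.0291, limma). The Bcas1 call was lost in 7 of 32 alternatives. Of the 13 general epithelial genes, 2 fell in KPAT, Cldn7 by 0.85 (SE 0.25, adjusted p = 0.0299) and Epcam by 0.70 (SE 0.23, adjusted p = 0.0474). In KAT 4 fell, among them Krt18 by 1.02 (SE 0.26, adjusted p = 0.0102), Krt19 by 0.79 (SE 0.23, adjusted p = 0.0206) and Cldn7 by 0.76 (SE 0.25, adjusted p = 0.0336, limma). Of 32 alternatives, 23 ended the Epcam call and 7 the Cldn7 call in KPAT, and 10 the Cldn7 call in KAT. The fitted falls of Cldn18, Psca and Vsig1 in KAT were larger than those of the epithelial genes named. Both sets were picked by their calls in these same data, which favours large falls, so their sizes cannot be compared. Over the whole lists the median log2 difference in KAT against KPT was -2.01 for the 10 members and -0.44 for the 13 epithelial genes. Of the members, 9 were negative, Agr2 among them at -0.61, and Tff2 was at 0.66. The difference between the lists was not tested.

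Genes of normal stomach glands were measured beside the 10. Of 10 such genes 8 are in the table, and their summed level was 29.0 to 67.8 in KPT, against 17.5 to 41.4 in KAT and 7.14 to 89.5 in KPAT, most of it from Pgc, a pepsinogen, at 5.39 to 81.5. Atp4a, the acid pump of parietal cells, was at most 3.26 in any tumour, and Gast, Gif, Pga5, Chia1 and Kcne2 were at most 1.07. Ghrl, which encodes the hormone ghrelin, was at 0.216 to 1.47 in KPT, against 1.55 to 14.8 in KAT and 0.304 to 3.89 in KPAT. Of the 3 gland genes tested (Pgc, Atp4a and Ghrl), Ghrl rose in KAT against KPT, by 2.32 (SE 0.78, adjusted p = 0.0369, limma), and none was called in KPAT against KPT. The part of gland cells in the levels of the 10 genes was not tested. The 11 acinar genes in the table summed to 49.3 to 239.9 in KPT, against 79.6 to 1104 in KAT and 19.4 to 732.5 in KPAT, with the highest sum in KAT 1.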

How the data were processed

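The authors sequenced whole-tumour RNA (RNeasy midi columns, TruSeq RNA libraries, HiSeq4000, per the labels' protocols) and aligned reads with HISAT2 2.0.4 to GRCm38 (mm10), per the submitters' processing notes. For the counter, its annotation, strand handling and scaling nothing is stated in the labels, headers or notes. The authors' deposited signal values can be turned back into reads with 1 factor for each library: 100% came within 0.01 of a whole number. Depth was 14696138 to 26248484 reads per library, and counting error weighs most on Tff1.

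Values were multiplied by 19.478, since the design assumed the scale of reads. Genes with a mean of at least 10 were kept. The log2(value + 1) of all 15 libraries entered a group-means model in limma 3.58.1 under R 4.3.3 (trended eBayes, two-sided tests, Benjamini-Hochberg over all 16648 genes, threshold 0.05), and fold changes are on that scale. The fit was also run on simulated data with the same spread setting for all genes and no outlying tumours. That run does not cover genes as uneven between tumours as Cldn18 or the gastrokines. Alternatives were other pseudocounts, minimums, scalings, spreads, covariates, samples and a replicate block, and edgeR 4.0.16 and DESeq2 1.42.0 on the recovered reads. Same-numbered tumours of different groups had deviations correlated at -0.21 to 0.25, with 3 of 15 over 0.1. Tumours with different numbers were not correlated for reference, so these values cannot decide whether numbers pair tumours. The main fit treated tumours as unpaired.

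Members and gene lists were chosen with earlier results of these data known. Genes named are the 10 members, Trp53, Cdkn2a, 7 gastric and lineage genes fixed by name and up to 3 called genes of each list by p. The 3 nearest patterns to each member, leaving out predicted genes, were added. So were the nearest tested genes on each side of the clusters and of Agr2. Symbols and exon lengths came from GENCODE for GRCm38, with 20585 of 20636 gene IDs matched. An item of the genotype that all groups share is not reported here.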

Additional observations from a re-analysis of the deposited data

Results flagged for a closer look

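Of the 30 groups of 5 tumours, 5 held 1 tumour far from the other 4 in deposited levels. Tff3 was at 169.7 in KAT 1, with a gap to the next tumour of 0.986 of the range, beside 554.3 of Muc2. Tff3 was at 11.5 in KPAT 1, with a gap of 0.741. Cldn18 was at 1445 in KPT 4 (0.895) and at 88.0 in KPAT 1 (0.722). Vsig1 was at 31.9 in KPAT 3 (0.815), the 1 low tumour of its group. A gap is called far above 0.71 of the range, a cutoff made for normally distributed values. The gaps were not taken on the log2 scale of the fits, where the flagged tumours may differ. Most of the genes vary together, and how often chance gives such gaps here was not tested.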

How the results depend on the processing

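The calls of Tff2 and Cldn18 in KPAT and of Cldn18, Psca and Vsig1 in KAT, both against KPT, kept their direction in every alternative, and those that ended a call are given beside the results. With the epithelial level as a covariate the members called in KPAT against KPT went from 2 to 0 and all genes called from 2752 to 99, and in KAT against KPT all genes called went from 4805 to 2346. Without KPT 3, KAT 2 and KPAT 5 the former counts were 0 and 1728, and 17 genes were called in KPAT against KAT in place of 8. Fits of only the groups compared called 1811 genes and 3 members in KPAT against KPT, and 15 genes in KPAT against KAT. In the latter, quantile scaling called 17, array weights 515 and DESeq2 284 genes, with 1 member by DESeq2. Leaving out 1 tumour gave 1687 (without KPAT 2) to 2895 genes and 2 to 4 members in KPAT against KPT, the 4 being without KAT 1, when Psca (-1.42, adjusted p = 0.0454, limma) and Tff3 passed too, 3539 to 4847 genes and 3 to 4 members in KAT against KPT, and 7 to 45 genes (45 without KAT 2) in KPAT against KAT. With the replicate number as a block, Tff3 also passed, at -2.59 (adjusted p = 0.0468) and -2.33 (adjusted p = 0.0452, limma), giving 3 and 4 members. No cause of these changes was tested.

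The values that changed sign were all uncalled log2 differences. In KPAT against KPT, Tff1 was 0.04 on the deposited scale, 0.10 with array weights, 0.44 with the epithelial covariate, 0.11 without KPT 1 and KAT 1, 0.26 with edgeR, 0.23 with DESeq2 and -0.51 to 0.47 without 1 tumour. With the epithelial covariate Gkn1 was 1.20, Gkn2 1.22, Gkn3 1.04, Ctse -0.03, Gata6 -0.16 and Ahr 0.03. With edgeR Gkn1 was 0.23, Gkn2 0.14, Gkn3 0.16 and Hnf4a 0.00, and with DESeq2 Gkn1 was 0.19, Gkn2 0.10 and Gkn3 0.12. Without KPT 3, KAT 2 and KPAT 5 Muc5ac was -0.55 and Gkn3 0.06. Without 1 tumour Gkn3 ran from -0.74 to 0.37, Ctse from -0.09 to 0.31, Gata6 from -0.15 to 0.23 and Ahr from -0.20 to 0.07.

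In KAT against KPT, array weights gave 0.74 for Gkn1, 0.35 for Gkn2, 0.14 for Agr2, -0.45 for Cdkn2a and 0.63 for Gkn3. The epithelial covariate gave 0.50 for Gkn1, 0.12 for Agr2, 0.92 for Gkn3 and 0.11 for Epcam. EdgeR gave 0.59 for Gkn1, 0.45 for Gkn2, 0.20 for Gkn3 and -0.05 for Tmprss3, and DESeq2 0.54, 0.40, 0.16 and -0.08. Without KPT 1 and KAT 1, Gkn3 was 0.37 and Gata6 0.18, and without KPT 3, KAT 2 and KPAT 5 Cdkn2a was -0.10. Quantile scaling gave 0.00 for Gata6 and -0.50 for Tmprss3. Without 1 tumour Gkn3 ran from -0.74 to 0.15, Gata6 from -0.31 to 0.12 and Tmprss3 from -0.14 to 0.68.

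In KPAT against KAT, array weights gave 0.10 for Tff3, -1.29 for Gkn1 and -1.07 for Gkn2. Without KPT 1 and KAT 1 Tff3 was 1.05, Cldn18 -0.31, Gkn1 -0.42 and Gata6 -0.01. The epithelial covariate gave 0.11 for Tff3 and 0.12 for Gkn3, and the acinar level as a covariate 0.26 and 0.04. EdgeR gave -0.36 for Gkn1 and -0.31 for Gkn2, DESeq2 -0.35 and -0.30, and Gkn3 was 0.54 without KPT 3, KAT 2 and KPAT 5. Without 1 tumour the ranges were -0.92 to 1.05 for Tff3, -0.31 to 1.02 for Cldn18, -0.42 to 1.29 for Gkn1, -0.08 to 2.07 for Gkn2, -0.50 to 0.64 for Gkn3 and -0.01 to 0.28 for Gata6.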
